A study of Mus musculus with 2 samples.

Results

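The I-kappa-B family was described in the cytosolic RNA of mouse macrophages that had met lipid A at 2 times. Its members were taken by gene symbol, and all 6 (Nfkbia, Nfkbib, Nfkbie, Nfkbiz, Nfkbid and Bcl3) were found among 55536 annotated genes, with 24 annotated transcripts between them. The cells were primary bone marrow-derived macrophages of strain C57BL/6J. They were given 100 ng/ml lipid A (the TLR4-binding moiety of lipopolysaccharide) for 12 h, kept without it for 12 h after a wash, and given 100 ng/ml again for 75 min before total RNA of the cytosol was depleted of ribosomal RNA and sequenced. Both libraries, biological replicates 1 and 2, belong to this single group, and no untreated or once-treated library was analysed here, so no value below measures a response to lipid A. The replicates have separate biosample records under the same donor code, and the labels do not say whether they came from separate animals, so the spread between them may be technical.

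NF-kB dimers are held in the cytoplasm of resting cells by the classical inhibitors I-kappa-B-alpha, -beta and -epsilon, encoded by Nfkbia, Nfkbib and Nfkbie, whose ankyrin repeats cover the nuclear import signal of the dimer. When TLR4 is engaged, the IKK complex phosphorylates these inhibitors, a ubiquitin ligase marks them for the proteasome, and freed NF-kB enters the nucleus, where it also transcribes Nfkbia again as a negative feedback loop. The atypical members I-kappa-B-zeta (Nfkbiz), I-kappa-B-NS (Nfkbid) and Bcl-3 (Bcl3) act in the nucleus, where they bind NF-kB subunits on DNA and raise or lower the transcription of chosen genes.

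Depth, summed over annotated genes, was 64187219 expected counts in replicate 1 and 49429864 in replicate 2. All 7 macrophage markers were detected, with a lowest level of 24.41 TPM (transcript abundance corrected for length and scaled to the same total in each library). Of 26 markers of 6 other cell types, 3 reached a TPM of 1 in both libraries (Cd4, S100a8 and S100a9), and 5 had no count in either library. The highest value was 16.74 TPM for Cd4, and 7.31 TPM among the neutrophil markers. In bulk RNA, fewer cells of a type and less RNA per cell cannot be told apart.

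Promoter windows are shown for some starts of the transcripts described below, whether or not the start was in use. Of the 6 members 5 have a window in RefSeq's promoter table (GRCm38.p6, the assembly also called mm10), which runs from 250 bases before to 50 bases after a start. Nfkbiz was not matched there. The windows of Nfkbib and of Nfkbid-201, which had no match, are not printed. Each printed window is written 5′ to 3′ on the strand of the gene, with matches to the kappaB consensus, searched on both strands, in capitals.
Nfkbia, chr12:55492598-55492897, minus strand: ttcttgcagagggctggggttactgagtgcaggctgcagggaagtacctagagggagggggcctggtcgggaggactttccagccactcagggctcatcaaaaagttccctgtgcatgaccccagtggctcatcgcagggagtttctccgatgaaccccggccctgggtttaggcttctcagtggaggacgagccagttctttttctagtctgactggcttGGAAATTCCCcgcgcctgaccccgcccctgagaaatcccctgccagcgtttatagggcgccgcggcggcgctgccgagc
Nfkbie, chr17:45555450-45555749, plus strand: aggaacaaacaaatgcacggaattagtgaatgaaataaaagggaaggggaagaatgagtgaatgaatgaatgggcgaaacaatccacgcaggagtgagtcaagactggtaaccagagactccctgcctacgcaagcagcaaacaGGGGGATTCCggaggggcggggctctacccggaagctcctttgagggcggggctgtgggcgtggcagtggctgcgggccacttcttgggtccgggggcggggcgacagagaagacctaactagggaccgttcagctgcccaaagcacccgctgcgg
Nfkbid at the start of transcript Nfkbid-203, chr7:30421481-30421780, plus strand: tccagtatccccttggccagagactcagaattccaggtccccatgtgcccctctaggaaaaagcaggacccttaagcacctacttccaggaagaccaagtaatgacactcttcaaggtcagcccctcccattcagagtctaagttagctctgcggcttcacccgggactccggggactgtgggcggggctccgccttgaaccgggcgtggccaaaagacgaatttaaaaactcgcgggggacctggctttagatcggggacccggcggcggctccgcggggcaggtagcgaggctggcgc
Nfkbid at the start of transcript Nfkbid-202, chr7:30422156-30422455, plus strand: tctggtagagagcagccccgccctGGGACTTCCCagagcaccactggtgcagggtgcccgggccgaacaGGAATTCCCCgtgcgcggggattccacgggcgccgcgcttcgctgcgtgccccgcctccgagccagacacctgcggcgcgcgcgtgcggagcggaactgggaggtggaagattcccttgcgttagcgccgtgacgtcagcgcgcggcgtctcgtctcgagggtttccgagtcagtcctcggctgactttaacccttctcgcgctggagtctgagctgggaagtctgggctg
Bcl3, chr7:19822706-19823005, minus strand: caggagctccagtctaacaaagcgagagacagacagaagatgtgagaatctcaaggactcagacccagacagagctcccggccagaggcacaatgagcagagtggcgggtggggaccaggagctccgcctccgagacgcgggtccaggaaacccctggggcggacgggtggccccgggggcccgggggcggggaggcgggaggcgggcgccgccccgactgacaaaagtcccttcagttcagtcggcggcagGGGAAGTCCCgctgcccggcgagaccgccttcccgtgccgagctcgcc
In Nfkbia the match began 29 bases upstream of the start, in Nfkbie 106 bases upstream, and in Bcl3 it began 2 bases downstream. Nfkbid had 3 windows, and its matches, 226 and 181 bases upstream, lay in the window of Nfkbid-202 alone. The single window of Nfkbib had no match. It belongs to the start of Nfkbib-201, a minor transcript. The start of the leading Nfkbib-202 lies downstream of this window. Part of the stretch upstream of that start was thus searched, but the start and the bases next to it were not. In all, 4 of the 7 windows of members had a match, against 8.46% of 32851 windows of all genes, and a match is a description of letters, not a bound site.

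Among the cytoplasmic inhibitors, the message of Nfkbia stood about an order of magnitude above the messages of Nfkbib and Nfkbie. Nfkbia, on chr12:55489410-55492647 of mm10 on the minus strand, had 558.61 TPM in replicate 1 and 341.47 TPM in replicate 2, a mean of 450.04 ± 154 (SD, n = 2). It ranked 62 and 88 among all annotated genes by TPM in the 2 libraries, with 84940 and 42239 expected counts. Both libraries placed it in the range above 100 TPM, which 404 of 55536 annotated genes reached in both.

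Nfkbib, whose product is degraded and resynthesised more slowly than I-kappa-B-alpha, lies on chr7:28758251-28767512 on the minus strand. It had 62.11 TPM in replicate 1 and 34.93 TPM in replicate 2, a mean of 48.52 ± 19.2 (SD, n = 2), from 7230 and 3316 expected counts. Nfkbie, which binds dimers that contain RelA or c-Rel and is itself an NF-kB target, lies on chr17:45555703-45563169 on the plus strand. It had 45.95 TPM in replicate 1 and 37.04 TPM in replicate 2, a mean of 41.495 ± 6.30 (SD, n = 2), from 11430 and 7567 expected counts. The ranges of Nfkbib and Nfkbie overlapped, Nfkbib was the higher in replicate 1 and Nfkbie in replicate 2, and their levels did not differ beyond the spread.

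Nfkbiz led the nuclear members. Nfkbiz, on chr16:55811375-55838899 on the minus strand, encodes I-kappa-B-zeta, which supports transcription of secondary response genes such as Il6 and Lcn2 in macrophages. It had 265.32 TPM in replicate 1 and 164.88 TPM in replicate 2, a mean of 215.10 ± 71.0 (SD, n = 2). With 101819 and 51862 expected counts it gave more fragments than Nfkbia in each library, although Nfkbia had the higher TPM, since its effective length was 3419.9 bases against 1355 bases for Nfkbia in replicate 1. Within a library Nfkbia stood at 2.11 and 2.07 times the TPM of Nfkbiz in replicates 1 and 2, so this ratio varied little while both levels varied.

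The other nuclear members were far less abundant. Bcl3, on chr7:19808462-19822770 on the minus strand, encodes a protein that binds p50 and p52 homodimers on DNA. It had 16.52 TPM in replicate 1 and 21.55 TPM in replicate 2, a mean of 19.035 ± 3.56 (SD, n = 2), from 2747 and 2840 expected counts, and was the single member with the higher TPM in replicate 2. Nfkbid, on chr7:30421732-30428746 on the plus strand, encodes a nuclear regulator of cytokine genes. It had 9.72 TPM in replicate 1 and 7.05 TPM in replicate 2, a mean of 8.385 ± 1.89 (SD, n = 2), from 1950 and 1161 expected counts, and was the lowest member in both libraries. Nfkbiz stood at 27.3 and 23.4 times the TPM of Nfkbid in replicates 1 and 2, and at 16.1 and 7.65 times that of Bcl3.

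**Figure D1:**
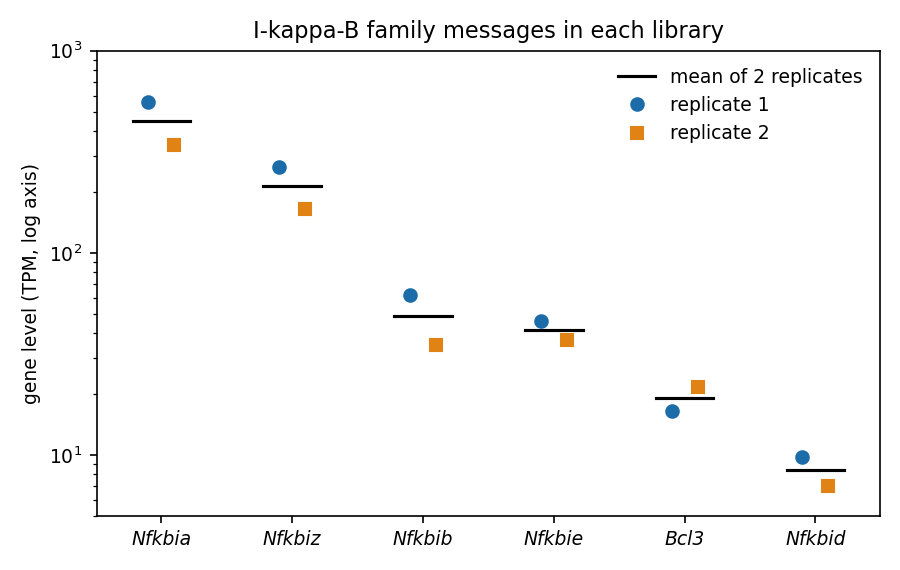
Gene level in TPM on a log axis for the 6 members in replicate 1 (circles) and replicate 2 (squares), with bars at the mean of the 2 libraries. The means run from 450.04 TPM for Nfkbia to 8.385 TPM for Nfkbid, and Bcl3 is the single gene whose replicate 2 value lies above its replicate 1 value.

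The order of the family was Nfkbia, Nfkbiz, Nfkbib and Nfkbie together, Bcl3 and Nfkbid. Of the 15 pairs of members, 14 had ranges over the replicates that did not overlap, and the pair that overlapped was Nfkbib with Nfkbie. The same 14 pairs kept their order within each library. The cytoplasmic inhibitors held 69.6% and 68.1% of the family's summed TPM in replicates 1 and 2, and the nuclear members held 30.4% and 31.9%. Nfkbia alone held 57.3% ± 1.44 and Nfkbiz 27.4% ± 0.369 (SD, n = 2), Nfkbib 6.12% ± 0.514 and Nfkbie 5.45% ± 0.925. Bcl3 held 1.72% and 3.55% in replicates 1 and 2, and Nfkbid 1.014% and 1.16%. These shares are ratios within a library and do not depend on the library's scale.

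Between the replicates, 5 members had the higher TPM in replicate 1 and Bcl3 had the higher TPM in replicate 2. The TPM ratio of replicate 1 to replicate 2 was 1.78 for Nfkbib, 1.64 for Nfkbia, 1.61 for Nfkbiz, 1.38 for Nfkbid, 1.24 for Nfkbie and 0.767 for Bcl3. At a fold of 1.5, 3 of the 6 members were higher in replicate 1 and none was lower, against 7.80% of 9302 detected genes (at least 1 TPM in both libraries) that were higher and 2.54% that were lower. In either direction the share of detected genes past that fold was 10.3%. The median detected gene had a ratio of 1.10, or 0.14 on the log2 scale. Part of each ratio above 1 was thus shared by the whole library, while the ratio of Bcl3 ran the other way. Relative to that median the ratios were 1.61 for Nfkbib, 1.48 for Nfkbia, 1.46 for Nfkbiz, 1.2501 for Nfkbid, 1.12 for Nfkbie and 0.695 for Bcl3.

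Counting error was small beside these ratios. On counts scaled by TMM, Nfkbia had a ratio of 1.55 with a 95% exact binomial interval of 1.53 to 1.57, and Nfkbiz one of 1.51 with an interval of 1.495 to 1.53. Nfkbib had 1.68 with an interval of 1.61 to 1.75, Nfkbid 1.29 with 1.20 to 1.39, Nfkbie 1.16 with 1.13 to 1.20 and Bcl3 0.745 with 0.706 to 0.785. The intervals hold counting error only, and they compare these libraries, not conditions. The count of members past 1.5-fold differed between settings. It was 1 of 6 with TPM rescaled to protein-coding genes, where 8.70% of detected genes passed, and 5 of 6 in the read-based table, where the median detected gene itself had a ratio of 1.47 and 46.9% passed. In the read-based table Bcl3 had 9.21 and 8.85 TPM in replicates 1 and 2, a ratio of 1.04, which turns its direction, while relative to the median of that table it stood at 0.710.

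**Figure D2:**
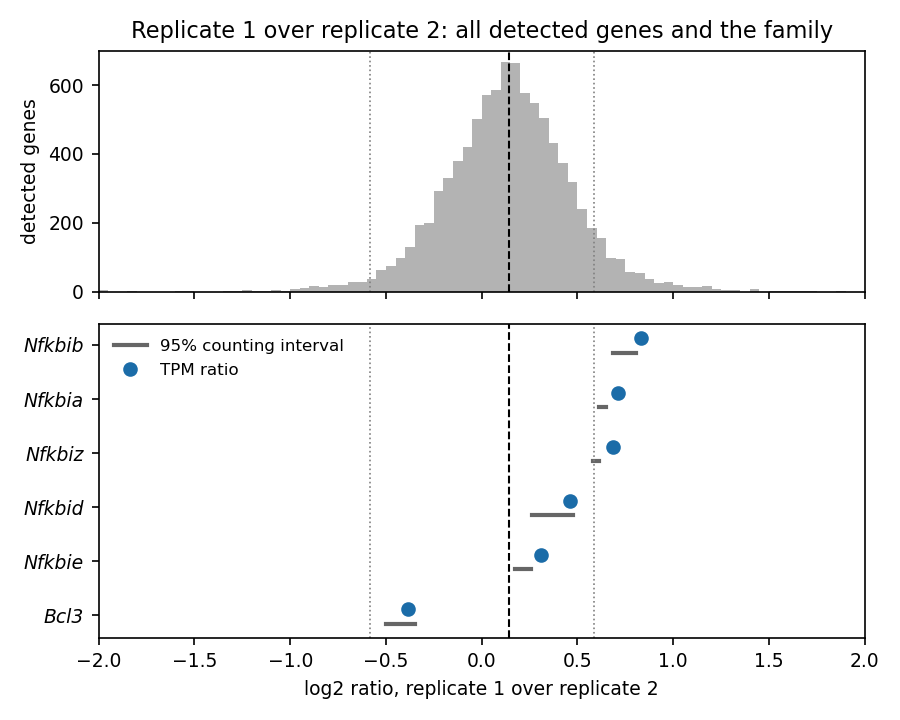
Upper panel, number of detected genes by log2 ratio of TPM in replicate 1 over replicate 2; lower panel, the 6 members, with points for the TPM ratio and lines for the 95% counting interval of the TMM-scaled count ratio. The dashed line marks the median of detected genes (0.14) and the dotted lines a fold of 1.5; Nfkbib, Nfkbia and Nfkbiz lie right of the upper dotted line and Bcl3 lies left of the median.

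Each member was carried mostly by a single transcript. In every member but Nfkbie, that transcript had the longest coding length annotated for the gene or equalled the longest. In Nfkbie the leading Nfkbie-201 has 1092 coding bases, against 1113 in Nfkbie-203. Of the 24 transcripts 15 are annotated as protein-coding, 5 as retained introns and 4 as processed transcripts. Nfkbia-201, the sole coding transcript of Nfkbia, held 99.75% and 99.18% of the gene's TPM in replicates 1 and 2. Nfkbib-202 held 98.15% and 98.02%, and Nfkbib-201, with the same coding length of 1077 bases, held 1.85% and 1.98%. Nfkbie-201 held 92.85% and 93.49%, and Nfkbie-203, whose last exon begins at a different splice site, held 5.91% and 4.33%.

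Nfkbiz has transcripts that begin at 2 main places. Nfkbiz-204 begins 16761 bases downstream of the annotated gene start and encodes the long form of I-kappa-B-zeta, with a coding length of 2184 bases. Nfkbiz-203 begins at the gene start, skips the exon in which Nfkbiz-204 begins and encodes the short form, with 1887 coding bases. Nfkbiz-204 had 221.95 and 135.14 TPM in replicates 1 and 2, and Nfkbiz-203 had 41.72 and 28.20 TPM. As a part of the gene, Nfkbiz-204 held 82.8% ± 1.20 and Nfkbiz-203 held 16.4% ± 0.983 (SD, n = 2). The 4 transcripts that begin within 200 bases of each other at the gene start held 16.34% and 18.04% together, and 17.4% and 19.6% in the read-based table, which bases its percents on another estimate. The other coding transcript at that start, Nfkbiz-202, had 0.55 and 0.53 TPM. Nfkbiz-201, which joins the upstream leader to the long coding part, was listed at 0 in both libraries.
The first 60 coding bases of each form, from the GENCODE M21 transcripts and with the first codon in capitals, show the separate start points of translation that are annotated.
Nfkbiz-204, long form: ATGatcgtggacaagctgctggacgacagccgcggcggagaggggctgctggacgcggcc
Nfkbiz-203, short form: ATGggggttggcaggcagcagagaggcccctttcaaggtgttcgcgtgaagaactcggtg
The long form has 297 more coding bases, or 99 codons, than the short form.

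The 3 coding transcripts of Nfkbid begin at 0, 674 and 1543 bases from the gene start. Nfkbid-203, which uses the first, had 9.3 and 6.8 TPM in replicates 1 and 2 and held 96.1% ± 0.495 of the gene (SD, n = 2). Nfkbid-201, from the third, held 3.91% and 3.58%, and Nfkbid-202, from the second, was listed at 0 in both libraries. The read-based table split the gene differently, with 87.5% and 84.4% for Nfkbid-203, 8.61% and 8.78% for Nfkbid-202 and 3.86% and 5.69% for Nfkbid-201. Nfkbid-203 led under both estimates, and the start whose window holds the matches to the kappaB consensus was thus at 0 under the first estimate and below 10% under the second.
Nfkbid-203 is annotated with a start codon other than ATG and has 1410 coding bases, against 981 in the other coding transcripts.
Nfkbid-203, long form: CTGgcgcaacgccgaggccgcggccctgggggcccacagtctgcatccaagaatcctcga
Nfkbid-202, short form: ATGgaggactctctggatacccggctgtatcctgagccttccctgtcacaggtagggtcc
The coding lengths differ by 429 bases, or 143 codons.

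**Figure D3:**
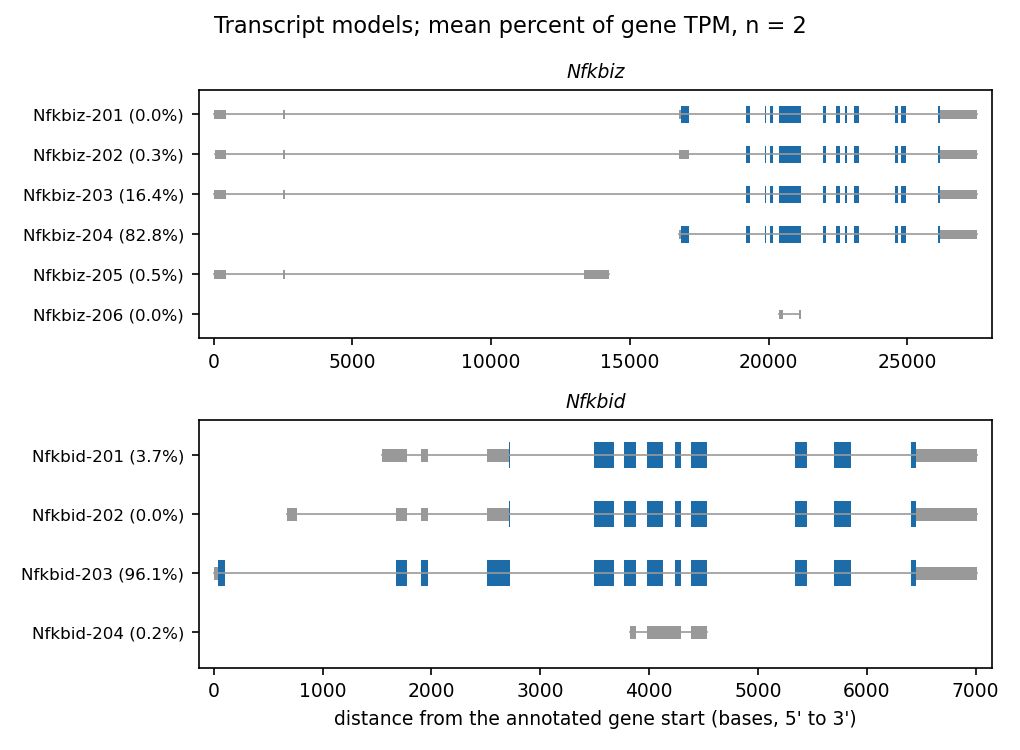
Transcript models of Nfkbiz (upper panel) and Nfkbid (lower panel) by distance in bases from the annotated gene start, with coding parts in tall blue blocks, other exonic parts in grey and introns as lines; each label gives the mean percent of the gene's TPM over the 2 libraries. Nfkbiz-204, at 82.8%, begins 16761 bases into the gene, and Nfkbid-203, at 96.1%, begins at the first of 3 starts.

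The make-up of Bcl3 also differed between the estimates. The full-length Bcl3 transcript, with a frame of 1344 bases, held 86.64% and 82.57% in replicates 1 and 2. A transcript of 755 bases at the 3′ end of Bcl3, whose start the annotation marks as incomplete, held 13.02% and 17.11%. It had 129 and 178.5 expected counts. In the read-based table the 3′ transcript held 3.59% and 5.90%, and the full-length transcript of Bcl3 held 91.0% and 90.6%. An antisense gene, Gm16175, overlaps exons of both transcripts and was listed at 0 in both libraries. Strandedness is not given in the sources used here. Whether reads of a member and of a gene on the other strand were told apart where their exons overlap is thus not known. For Nfkbib such overlap touched Nfkbib-201 (with Ccer2, at 0 in both libraries) and Nfkbib-203 (with Sirt2), but not the leading Nfkbib-202.

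Transcripts without a coding frame were a minor part of the members in this cytosolic RNA, and for Bcl3 the size of that part differed between the estimates. Nfkbib has none annotated. They held 0.535% ± 0.403 of Nfkbia, 1.715% ± 0.658 of Nfkbie, 0.51% ± 0.141 of Nfkbiz, 0.18% ± 0.255 of Nfkbid and 0.34% ± 0.014 of Bcl3 (SD, n = 2). In the read-based table they averaged 4.46% of Bcl3 and 0.583% of Nfkbid. The retained-intron transcript Nfkbia-202 had 1.37 TPM in replicate 1 and 2.81 TPM in replicate 2, with deposited intervals of 0.748 to 2.38 and 1.80 to 4.23, which overlap. That of Nfkbie, Nfkbie-202, had 0.57 TPM in replicate 1 and 0.81 TPM in replicate 2, with deposited intervals of 0.434 to 0.733 and 0.614 to 1.01, which overlap as well. Both point values were higher in replicate 2, where the genes themselves were lower. The retained-intron transcripts of Nfkbid and Bcl3 had at most 0.04 TPM in either library. The nuclear RNAs Malat1 and Neat1, chosen after their values were seen, had 132 and 7.96 TPM in replicate 1 and 384 and 29.7 TPM in replicate 2. Their part in the retained-intron values was not tested.

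**Figure D4:**
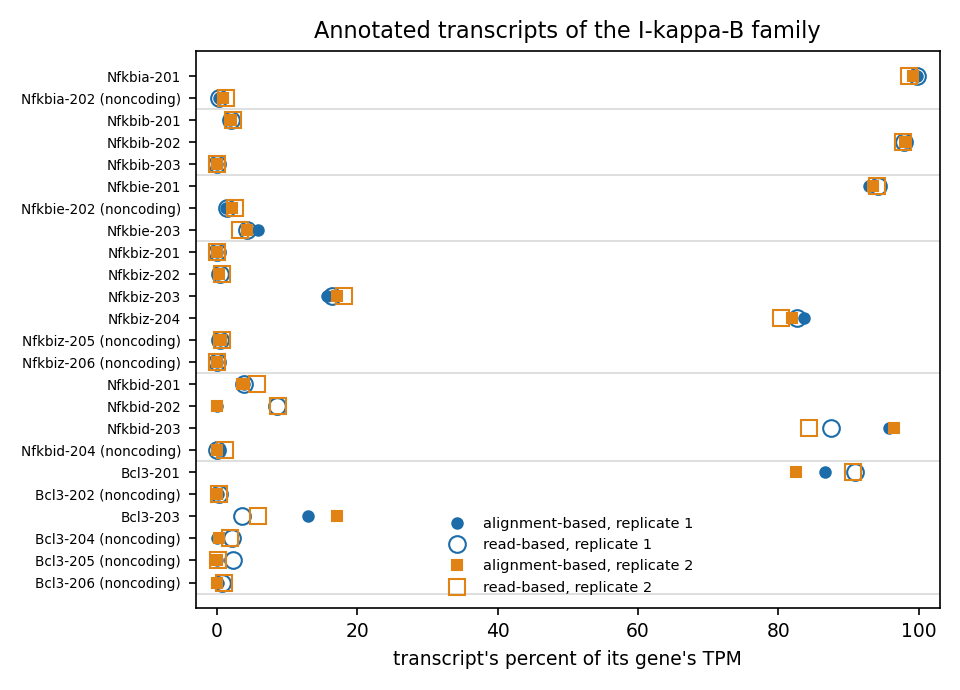
Percent of each gene's TPM held by each of the 24 annotated transcripts, in replicate 1 (circles) and replicate 2 (squares), from the alignment-based table (filled) and the read-based table (open); noncoding marks transcripts with no annotated coding frame. A single transcript holds over 80% of each gene under both estimates, and the estimates lie farthest apart for Nfkbid-203, Nfkbid-202 and the 3′ transcript of Bcl3.

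Set beside the 23 genes of the pathway lists, Nfkbia exceeded all of them in both libraries, and Nfkbiz exceeded all but Tnfaip3. The 6 members had a median of 45.0 ± 12.8 TPM (SD over the libraries' medians, n = 2), against 7.495 ± 0.460 over the 9302 detected genes and 0 over all annotated genes. All 5 subunit genes lay between 10 and 100 TPM, with a median of 29.5 ± 6.17. Rela, the main activating subunit, had 33.86 and 24.06 TPM in replicates 1 and 2, and Nfkb1, the precursor of p50, had 32.88 and 29.17 TPM. Rel, the subunit c-Rel, had 39.29 and 25.13 TPM and was the single subunit past a fold of 1.5 between the replicates. Within a library the TPM of Nfkbia was 16.5 and 14.2 times that of Rela in replicates 1 and 2.

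The genes that act on I-kappa-B proteins were less abundant than Nfkbia. The IKK complex had a median of 8.84 ± 0.410 TPM (n = 2), led by the catalytic subunit Ikbkb at 20.11 and 18.58 TPM in replicates 1 and 2. The scaffold Ikbkg had 7.0 and 6.12 TPM, and the kinase Chuk 9.13 and 8.55 TPM. Of the ubiquitin ligase that marks phosphorylated I-kappa-B, 4 of 5 genes lay between 10 and 100 TPM. Its substrate receptors were unequal: Fbxw11 had 21.82 and 18.39 TPM and Btrc had 2.83 and 2.45 TPM. Nkiras2, a Ras-like protein that binds I-kappa-B and slows its degradation, had 16.29 and 14.88 TPM, and its relative Nkiras1 had 2.77 and 2.53 TPM. None of these 10 genes passed a fold of 1.5 between the replicates.

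Among the upstream brakes, Tnfaip3, the ubiquitin-editing enzyme A20 and itself an NF-kB target, lay below Nfkbia and above Nfkbiz in both libraries. It had 279.57 and 175.05 TPM in replicates 1 and 2, a ratio of 1.60, and Nfkbia stood at 2.00 and 1.95 times its level within the libraries. Tnip1, which binds A20, had 59.27 and 45.19 TPM, and the deubiquitinase Cyld 8.96 and 9.09 TPM.

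Genes whose induction in macrophages is known to need I-kappa-B-zeta did not share its level. Their median was 9.245 ± 4.82 TPM (n = 2), far under the 215.10 TPM of Nfkbiz. Lcn2, the siderophore-binding lipocalin, had 12.65 and 12.70 TPM in replicates 1 and 2. The cytokine genes Il6 and Il12b had 22.26 and 13.12 TPM in replicate 1 and 6.73 and 5.84 TPM in replicate 2. The growth factor genes Csf2 and Csf3 were the lowest, with 4.77 and 0.21 TPM in replicate 1 and 0.65 and 0.14 TPM in replicate 2. Il6, Il12b and Csf2 were past a fold of 1.5, with ratios of 3.31, 2.25 and 7.34, and Csf3 stood at it, from 28 and 15 expected counts. Csf2 had 310 and 34 expected counts. The counting intervals of Il6 and Csf3 on TMM-scaled counts were 2.77 to 3.33 and 0.742 to 2.89. Over all 23 pathway list genes 6 reached that fold in the direction of replicate 1 and none in the other, beside the 7.80% and 2.54% of detected genes given above, though Csf2 and Csf3 were themselves under the detection limit.

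**Figure D5:**
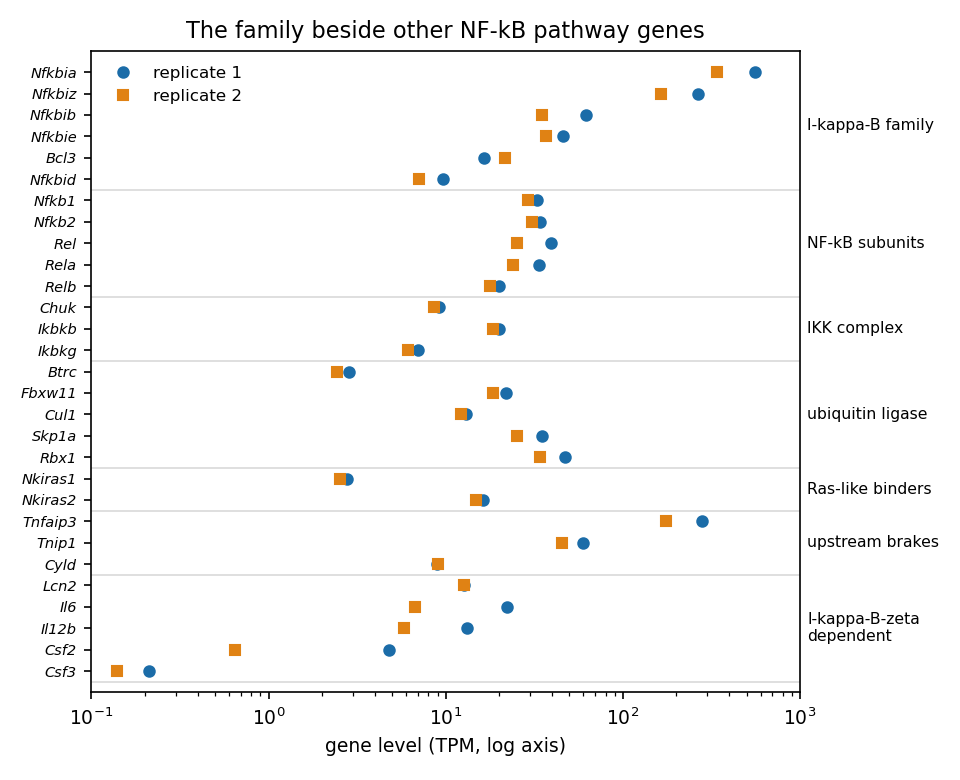
Gene level in TPM on a log axis for the 6 members and the 23 genes of the pathway lists, in replicate 1 (circles) and replicate 2 (squares), grouped by role. Nfkbia, Nfkbiz and Tnfaip3 are the genes above 100 TPM in both libraries, and Csf2 and Csf3 are those under 1 TPM in at least 1 library.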

How the data were processed

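Total RNA of the cytosolic fraction was measured in 2 libraries of 1 group, so no test between groups was possible and none was run. The text deposited beside the tables names mm10 and the GENCODE M21 annotation. Aligner, quantifiers and strandedness: not given in the sources used here. Each library had 3 tables: gene and transcript tables from a transcriptome alignment, and a transcript table from the reads. The authors deposited expected counts, which estimate fragments per feature without any scaling. The deposited TPM values are corrected for effective length and scaled over all features of a table, so abundant short RNAs lower the TPM of all other genes. The deposited FPKM values are scaled per length and mapped fragments, and the deposited percent values split the TPM of a gene among its transcripts. The deposited intervals lie around a posterior mean TPM, and their level is not stated in the headers.

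From these, means and SDs over the replicates, ratios and shares were computed in Python 3.11.15 (scipy 1.17.1). A gene counted as detected if both libraries had 1 TPM or more. Expected counts were rounded for the library sizes of edgeR 4.0.16 (TMM) and DESeq2 1.42.0, and for exact binomial (Clopper-Pearson) 95% intervals of a ratio, which cover counting error only. The fold rule and interval were also tried on simulated counts, but no outcome is given here, so this adds no support to them. A comparison of 2 against 2 values could not reach an exact two-sided permutation p below 0.333. Members, pathway lists and the rule for named genes (all members, all list genes, and genes that overlap a member) were chosen with earlier results of these data known. Malat1 and Neat1 were named outside this rule, after their values were seen, and the cell type markers come from separate lists. With 1 group there is no pattern over conditions, so no gene was named for such a pattern. The planned protein features were not computed, as no protein sequences were used here. A ratio equal to the fold counted as past it.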

Additional observations from a re-analysis of the deposited data

How the results depend on the processing

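The order of the members, with 14 of 15 pairs apart, was kept in the read-based table and on a scale set by protein-coding genes alone (the protein-coding scale). With TMM-scaled counts, which are not per length, 14 pairs were apart as well, but the order changed. Nfkbiz stood above Nfkbia in each library and their ranges overlapped, while Nfkbie stood above Nfkbib with ranges apart. Levels moved with the scale. In the read-based table Nfkbia, Nfkbib, Nfkbie, Nfkbiz, Nfkbid and Bcl3 averaged 250.5, 24.9, 20.7, 112, 4.41 and 9.03 TPM, on the protein-coding scale 1584, 170.4, 147, 758, 29.7 and 68.7, and as FPKM 806, 86.8, 74.7, 385, 15.06 and 34.5. Posterior mean TPM moved no level by more than 1 SD. Leaving out either replicate leaves the other's value, given in the report, and with 2 replicates says nothing of stability. Members past the fold numbered 3, where 10.3% of detected genes passed. They numbered 1 on the protein-coding scale (8.70% of genes), 5 in the read-based table (46.9%), 5 at the smaller alternative fold (34.7%) and 0 at a fold of 2 (2.15%). They numbered 2 with DESeq2 size factors (8.18%), and 3 with TMM (8.31%), with a pseudocount of 1 (6.88%), with no minimum for the background (39.8%) and with a mean expected count of at least 10 (19.6%). The ratio of Bcl3 turned to 1.04 in the read-based table; the cause was not tested. Nfkbia's part of the family was 58.9% there. In that table the leading transcripts of Nfkbib, Nfkbie, Nfkbiz, Nfkbid and Bcl3 held 97.8%, 94.1%, 81.5%, 85.9% and 90.8%, and transcripts without a coding frame 0.583% of Nfkbid and 4.46% of Bcl3. As percent of expected counts, the leading transcripts of Nfkbib and Bcl3 held 96.6% and 94.4%, and transcripts without a coding frame 0.175% of Nfkbiz and 0.0675% of Bcl3. Medians of subunits, IKK complex, ligase, Ras-like binders, upstream brakes and genes that need I-kappa-B-zeta were 104, 31.6, 71.5, 32.5, 185 and 32.3 TPM on the protein-coding scale. In the read-based table they were 15.3, 4.88, 10.9, 5.003, 29.3 and 5.05 TPM in the same order. No paired analysis was possible because the series has 1 group. Low counts limit Csf2, Csf3 and the minor transcripts, and the number of replicates limits all spreads.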
